A study of Mus musculus with 62 samples.

Results

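Neutrophil genes were followed in RNA from whole mouse hearts. The genes are S100a8, S100a9, Csf3r, Cxcr2, Retnlg, Wfdc21, Mmp9 and Ngp, 8 of the 47643 gene symbols in the deposited table, chosen by symbol as genes typical of neutrophils. The mice were female and 2 months old, and belonged to 3 arms. CAC mice received melanoma cells that cause cachexia, the loss of muscle and fat seen in some cancer patients. NCAC mice received melanoma cells that do not, and Con mice received a mock injection. Hearts were taken 2, 4, 6 and 8 weeks later, 12 groups in all. Each group holds 5 libraries, except CAC at week 8 with 7 and Con at week 4 with 4. The sample labels give the strain as C57BL6/J, whereas the design text names nude mice, which are athymic. The CAC and NCAC arms differ in the cells injected as well as in wasting, so these cannot be told apart, and the sources used here do not say whether an arm used more than 1 melanoma line.

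Neutrophils are short-lived white blood cells that mature in the bone marrow under the growth factor G-CSF, circulate in blood and enter tissue along chemokine gradients. They build their granules in sequence: azurophil granule proteins first, specific granule proteins next, gelatinase granule proteins last, so a circulating neutrophil has largely stopped transcribing the early granule genes. A healthy heart holds few neutrophils, and in the inflamed heart they arrive from the blood. Several of the 8 genes are also transcribed elsewhere, S100a8 and S100a9 in monocytes and Mmp9 in other myeloid and stromal cells.

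Expression was given as TPM, a share of each library corrected for transcript length and scaled to the same total. Libraries held 25.3 to 49.1 M reads (median 46.2 M), as recovered from the step size of the TPM values. Replicate 2 of Con at week 4 was left out: mitochondrially encoded genes made up 89.1% of its TPM, against 49.3 to 61.1% in the other 61, and the cardiomyocyte myosin gene Myh6 stood at 612 TPM, against 3419 to 8033 TPM. All differences below are on the log2(TPM + 1) scale, which understates changes of genes below a few TPM. They come from a limma fit to all 61 libraries, with p-values adjusted over all genes tested, and a call needs an adjusted p under 0.05. The labels call the samples biological replicates and each heart has its own number, but no litter, batch or day is given, so the spread behind each p-value is that between libraries, and part of it may be technical.

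The 8 genes spanned a wide range of levels. S100a9 was the most abundant, at 0.774 to 25.7 TPM over the 61 libraries, followed by S100a8 at 0.388 to 12.9 TPM. Csf3r ranged from 0.323 to 3.81 TPM, Retnlg from 0.110 to 5.96 TPM and Cxcr2 from 0.0427 to 1.21 TPM. Wfdc21 ranged from 0 to 2.03 TPM, Mmp9 from 0.0735 to 0.621 TPM and Ngp from 0 to 0.482 TPM. The low genes rest on few reads: 0 to 18 per library for Wfdc21 and 0 to 13 for Ngp, against 9 to 291 for S100a9. Retnlg held 1 to 79 reads (median 10) and Cxcr2 3 to 79 (median 19). Ly6g, the surface marker that defines mouse neutrophils, averaged 0.0553 TPM in CAC and 0.0283 TPM in Con hearts of week 8, and the azurophil granule gene Elane was listed at 0 in both groups. The hearts thus held transcripts of mature neutrophil genes at low levels and next to none of the marker that defines the cell type in mouse.

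Of the 8 genes, 6 were at 1 TPM or above in 5 or more libraries and so entered the test of 12541 genes, and Mmp9 and Ngp did not. Cxcr2 passed that filter through 5 libraries that were all CAC week 8. Wfdc21 passed through 3 libraries of CAC week 6 and 4 of CAC week 8. Both therefore passed only through the arm in which they were high, so counts over the 6 are a description, and a second fit with no filter (23360 genes) covers all 8.

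The starts of the genes that stood higher in CAC hearts are shown because these genes moved together across libraries and their promoters can be set beside each other. Promoter sequence from RefSeq (build GRCm38.p6, 250 bases before to 50 after the start, on the gene's strand) matched 6 of the 8 symbols. Wfdc21 and Mmp9 had no entry. Capitals mark matches to letters bound by C/EBP factors (TTGCNNAA, or TTNNGCAA on the other strand) or by PU.1 (GAGGAA, or TTCCTC on the other strand), which are transcription factors of the granulocyte lineage.
S100a8, chr3:90668821-90669120, plus strand: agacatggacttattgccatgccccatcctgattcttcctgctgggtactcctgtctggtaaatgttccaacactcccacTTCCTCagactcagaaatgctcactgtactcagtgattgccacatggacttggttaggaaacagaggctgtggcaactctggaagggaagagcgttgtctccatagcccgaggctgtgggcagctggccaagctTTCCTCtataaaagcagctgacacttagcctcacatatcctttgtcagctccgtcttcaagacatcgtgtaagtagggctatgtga
S100a9, chr3:90695672-90695971, minus strand: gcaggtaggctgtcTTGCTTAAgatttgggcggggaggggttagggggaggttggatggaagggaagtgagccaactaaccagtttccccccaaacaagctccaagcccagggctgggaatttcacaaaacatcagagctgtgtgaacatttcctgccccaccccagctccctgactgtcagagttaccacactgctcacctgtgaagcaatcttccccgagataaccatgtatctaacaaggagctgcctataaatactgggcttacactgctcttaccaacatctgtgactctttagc
Csf3r, chr4:126024409-126024708, plus strand: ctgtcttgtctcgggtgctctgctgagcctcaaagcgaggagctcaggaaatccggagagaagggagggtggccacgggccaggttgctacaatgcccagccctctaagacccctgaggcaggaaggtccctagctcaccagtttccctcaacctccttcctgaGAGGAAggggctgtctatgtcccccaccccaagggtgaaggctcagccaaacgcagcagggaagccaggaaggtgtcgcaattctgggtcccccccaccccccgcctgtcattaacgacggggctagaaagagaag
Cxcr2, chr1:74153744-74154043, plus strand: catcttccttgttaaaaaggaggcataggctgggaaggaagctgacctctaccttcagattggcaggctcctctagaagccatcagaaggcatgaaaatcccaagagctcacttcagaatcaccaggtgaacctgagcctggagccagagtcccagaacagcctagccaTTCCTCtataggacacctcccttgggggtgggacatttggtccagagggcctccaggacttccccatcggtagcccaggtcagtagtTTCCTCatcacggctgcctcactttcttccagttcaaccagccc
Retnlg, chr16:48872358-48872657, plus strand: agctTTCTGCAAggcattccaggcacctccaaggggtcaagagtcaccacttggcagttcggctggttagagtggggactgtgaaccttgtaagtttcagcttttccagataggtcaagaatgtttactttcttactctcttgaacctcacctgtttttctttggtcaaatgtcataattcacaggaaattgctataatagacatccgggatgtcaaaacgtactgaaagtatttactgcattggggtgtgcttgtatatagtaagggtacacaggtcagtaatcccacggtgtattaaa

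S100a8 (gene body chr3:90668978-90670035, plus strand) and S100a9 (chr3:90692632-90695721, minus strand) are near neighbours in mm10 and point toward each other. S100a8 held PU.1 letters at -170 and -36, Csf3r at -86, and Cxcr2 at -81 and 7, counted with the start as the first positive base and no base 0. S100a9 and Retnlg held C/EBP letters instead, at -236 and -246. Ngp, whose level did not follow the others, held C/EBP letters at -138 and -11. No match overlapped another. These letters are common: 28.3% of 32851 promoters of the same length held the PU.1 letters and 10.8% the C/EBP letters. The letters of a STAT site (TTCNNNGAA, the same on both strands), searched because the G-CSF receptor signals through STAT3, were in 8.30% of promoters and in none of these 6 windows. A match is a run of letters and not a measured binding site.

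At week 8, 6 of the 8 genes were higher in CAC than in Con hearts in the fit with no filter, in which 30.9% of all genes were called higher. They were S100a8, S100a9, Csf3r, Cxcr2, Retnlg and Wfdc21, with adjusted p between 8.73e-08 and 0.0225 (limma). The median difference over the 8 genes was 0.84, beside 0.03 over all genes of that fit. That fit includes the genes under the filter, whose differences this scale compresses toward 0. With the filter the median was 0.93 over the 6 tested genes, beside 0.19 over all genes. With the filter the same 6 genes were called, against a background of 50.8% of genes called higher and 9.98% lower. Called higher was thus common among all genes, and the count alone does not set these genes apart. TPM are shares, and mitochondrial transcripts took less of the CAC libraries, 52.2 ± 1.92% against 58.3 ± 3.28% in Con at week 8 (SD). Rescaling the libraries by the median of ratios moved the median difference of all genes to 0.01, against 0.19 as deposited, and the split to 27% higher and 24.8% lower, with the 6 genes still called.

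**Figure D1:**
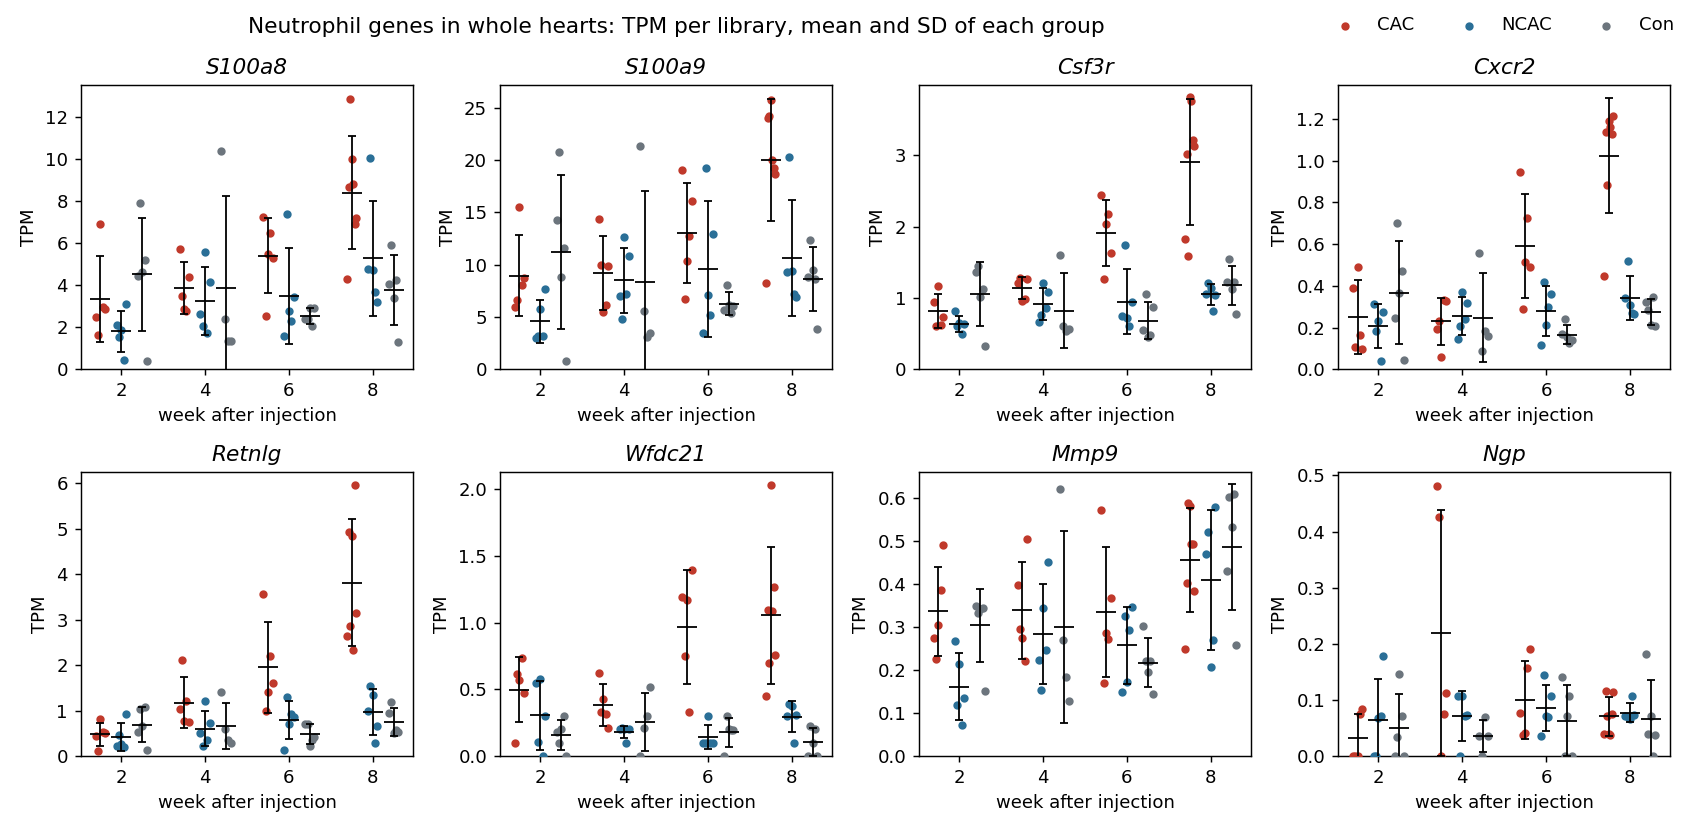
TPM of each of the 8 genes (one panel per gene, linear axes starting at 0) by week after injection, with CAC, NCAC and Con side by side at each week; points are libraries, and the bar and whiskers give the mean and SD. The mean of CAC at week 8 is the highest of the 12 group means for S100a8, S100a9, Csf3r, Cxcr2, Retnlg and Wfdc21, with single libraries of other groups inside its range, but not for Mmp9 and Ngp.

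S100a8 and S100a9 encode calcium-binding proteins that pair as calprotectin, an abundant cytosolic protein complex of the neutrophil, which binds zinc and manganese and signals through Tlr4. In CAC hearts of week 8 S100a8 lay between 4.29 and 12.9 TPM (median 8.70, n = 7). NCAC hearts had 4.78, 10.05, 4.74, 3.70 and 3.21 TPM, and Con hearts 4.06, 5.94, 3.40, 4.25 and 1.32 TPM. Of the 7 CAC libraries 6 lay above every Con library, and 1 lay above every NCAC library because NCAC replicate 2 was itself high. S100a8 averaged 8.41 ± 2.68 TPM in CAC against 3.79 ± 1.67 TPM in Con hearts (SD), a difference of 1.01 (SE 0.34, limma adjusted p = 0.0106). The difference from NCAC hearts, which averaged 5.30 ± 2.74 TPM, was 0.62 (95% interval -0.08 to 1.31, adjusted p = 0.11) and was not called.

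S100a9 followed its partner at a higher level. It lay between 8.23 and 25.7 TPM in CAC hearts of week 8 (median 20.0). NCAC hearts had 9.28, 20.3, 9.41, 7.18 and 6.92 TPM, and Con hearts 8.82, 12.4, 9.47, 8.59 and 3.86 TPM. CAC replicate 1, at 8.23 TPM, was the single CAC library inside the Con range, and the other 6 had 18.6 TPM or more. The mean was 20.0 ± 5.86 TPM in CAC against 8.62 ± 3.06 TPM in Con hearts, a difference of 1.13 (SE 0.40, limma adjusted p = 0.0125). Against NCAC hearts, at 10.6 ± 5.54 TPM, it was 0.89 (SE 0.40, adjusted p = 0.0448), a call that was lost in 10 of 12 fits that each left out 1 library and in 8 of 11 other settings (adjusted p up to 0.271). Both calls against Con were lost without Con replicate 5 (S100a8 adjusted p = 0.0657, S100a9 0.0619) and after rescaling without mitochondrial and haemoglobin genes (0.0505 and 0.0526). They were also lost without CAC replicate 3 after median-of-ratios rescaling (0.0974 and 0.0842). In whole-heart RNA more neutrophils, more RNA of these genes per cell and RNA from other cells cannot be told apart. This holds for S100a8, S100a9 and every gene below.

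At week 6 neither S100 gene was called. S100a8 had 7.27, 2.54, 5.48, 6.50 and 5.29 TPM in CAC hearts, 1.59, 7.39, 2.77, 2.30 and 3.47 TPM in NCAC hearts, and 2.41, 2.39, 2.95, 2.06 and 2.93 TPM in Con hearts. S100a9 had 19, 6.76, 10.4, 12.8 and 16 TPM in CAC hearts, 3.47, 19.2, 7.12, 5.21 and 12.9 TPM in NCAC hearts, and 5.67, 8.11, 6.17, 5.40 and 6.09 TPM in Con hearts. For both genes 4 of 5 CAC libraries lay above all Con libraries, and CAC replicate 2 was the exception. The differences from Con were 0.81 for S100a8 (limma adjusted p = 0.0608) and 0.88 for S100a9 (adjusted p = 0.0757). Without CAC replicate 2 both passed, at 0.0262 and 0.0403, and so they did in a limma fit to the CAC and Con libraries of week 6 alone, at 0.00373 and 0.00435. The NCAC libraries covered the whole CAC range, with differences of 0.58 (adjusted p = 0.183) and 0.54 (adjusted p = 0.281).

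Earlier the pair was as high in single Con libraries as in any CAC library. At week 2 S100a8 had 2.49, 1.64, 6.91, 2.96 and 2.87 TPM in CAC hearts, 2.12, 1.54, 1.87, 0.437 and 3.09 TPM in NCAC hearts, and 4.42, 7.94, 4.64, 5.2 and 0.388 TPM in Con hearts. At week 4 it had 5.75, 3.49, 2.88, 2.79 and 4.41 TPM in CAC hearts, 2.66, 2.08, 5.59, 1.75 and 4.16 TPM in NCAC hearts, and 10.4, 2.42, 1.37 and 1.36 TPM in Con hearts. Con replicate 5 of week 2 held 6 reads of S100a8 and 9 of S100a9, the fewest of both genes in any library, whereas Con replicate 1 of week 4 reached 10.4 and 21.3 TPM. No difference at these weeks was called for either gene, and the spread within the Con groups was as wide as the week 8 step.

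Csf3r encodes the receptor for G-CSF, which drives the production and survival of neutrophils. CAC hearts of week 8 lay between 1.59 and 3.81 TPM (median 3.14). NCAC hearts had 1.05, 1.21, 1.15, 0.821 and 1.05 TPM, and Con hearts 1.23, 1.54, 1.13, 1.22 and 0.773 TPM. All 7 CAC libraries lay above all 10 others, at a mean of 2.91 ± 0.879 TPM against 1.06 ± 0.148 TPM in NCAC and 1.18 ± 0.276 TPM in Con hearts. The differences were 0.89 from NCAC (SE 0.14, limma adjusted p = 4.34e-07) and 0.82 from Con (SE 0.14, adjusted p = 2.86e-06). In the comparison with NCAC 5 of the 6 tested genes were called, where 57.4% of all genes were called higher, and 4 of 8 in the fit with no filter, where 35.3% were. Rescaled by the median of ratios, that comparison had 27.5% of genes higher and 24.3% lower, against 57.4% and 8.76% as deposited.

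The Csf3r difference from Con was of similar size at week 6. CAC hearts had 2.44, 1.26, 2.04, 2.18 and 1.64 TPM, NCAC hearts 0.746, 1.74, 0.715, 0.610 and 0.946 TPM, and Con hearts 0.559, 1.05, 0.458, 0.480 and 0.869 TPM. Every CAC library lay above every Con library, and 3 of 5 lay above every NCAC library. Csf3r was 0.79 higher in CAC than in Con (limma adjusted p = 2.99e-05) and 0.59 higher than in NCAC (adjusted p = 0.00116). At week 4 CAC hearts, at 0.965 to 1.27 TPM, overlapped Con hearts at 0.538 to 1.60 TPM, and the difference of 0.26 was not called (adjusted p = 0.275).

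Cxcr2 encodes the chemokine receptor that draws neutrophils toward Cxcl1, Cxcl2, Cxcl5 and Ppbp and releases them from the marrow. It lay between 0.449 and 1.21 TPM in CAC hearts of week 8 (median 1.14). NCAC hearts had 0.344, 0.519, 0.306, 0.272 and 0.263 TPM, and Con hearts 0.323, 0.286, 0.215, 0.346 and 0.210 TPM. Of the 7 CAC libraries 6 lay at 0.882 TPM or more, and replicate 1 at 0.449 TPM lay above all Con libraries but inside the NCAC range. The mean of 1.02 ± 0.276 TPM in CAC compared with 0.341 ± 0.105 TPM in NCAC and 0.276 ± 0.0617 TPM in Con hearts. Cxcr2 was 0.58 higher than in NCAC (SE 0.10, limma adjusted p = 2.27e-06) and 0.65 higher than in Con (SE 0.10, adjusted p = 3e-07), a 3.70-fold ratio of means.

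At week 6 Cxcr2 had 0.943, 0.290, 0.516, 0.724 and 0.488 TPM in CAC hearts, 0.116, 0.421, 0.215, 0.297 and 0.359 TPM in NCAC hearts, and 0.169, 0.243, 0.157, 0.128 and 0.139 TPM in Con hearts. CAC and Con did not overlap. The difference was 0.43 from Con (limma adjusted p = 0.000771) and 0.30 from NCAC (adjusted p = 0.0161). The call against NCAC was lost in 4 of 9 other settings (limma adjusted p up to 0.0941), among them either rescaling (0.0735 and 0.0926). It was also lost without CAC replicate 1 (0.0865) and without NCAC replicate 1 (0.0579). At weeks 2 and 4 Cxcr2 reached at most 0.704 TPM in any library and the differences from Con were -0.12 and -0.01.

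Retnlg, a secreted resistin-like protein of mouse neutrophils and bone marrow, showed the largest difference of the 8 genes from Con at week 8 on the log2(TPM + 1) scale, whereas the ratio of means was larger for Wfdc21. CAC hearts lay between 2.33 and 5.96 TPM (median 3.16). NCAC hearts had 1.00, 1.55, 1.34, 0.287 and 0.660 TPM, and Con hearts 0.956, 1.20, 0.503, 0.579 and 0.527 TPM. The lowest CAC library stood above the highest of the other arms, with means of 3.81 ± 1.40 TPM in CAC, 0.967 ± 0.508 TPM in NCAC and 0.752 ± 0.309 TPM in Con hearts. Retnlg was 1.28 higher than in NCAC (SE 0.20, limma adjusted p = 2.65e-07) and 1.42 higher than in Con (SE 0.20, adjusted p = 3.1e-08), a 5.07-fold ratio of means. These CAC libraries held 30 to 79 reads of Retnlg each, and the Con libraries 7 to 15.

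Retnlg was also called at week 6. CAC hearts had 3.57, 0.993, 1.42, 2.21 and 1.61 TPM, NCAC hearts 0.145, 1.31, 0.719, 0.922 and 0.864 TPM, and Con hearts 0.706, 0.718, 0.215, 0.356 and 0.418 TPM. All CAC libraries lay above all Con libraries and 4 of 5 above all NCAC libraries. The differences were 0.95 from Con (limma adjusted p = 0.000234) and 0.70 from NCAC (adjusted p = 0.0052). At week 4 CAC hearts had 1.04, 2.11, 0.764, 1.21 and 0.752 TPM, against 0.505, 0.223, 1.22, 0.357 and 0.731 TPM in NCAC and 1.40, 0.597, 0.355 and 0.296 TPM in Con hearts. These overlapped, and the differences of 0.44 from NCAC (adjusted p = 0.155) and 0.40 from Con (adjusted p = 0.231) were not called.

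Wfdc21 encodes a small secreted protein with a WAP four-disulfide core domain. In CAC hearts of week 8 it lay between 0.450 and 2.03 TPM (median 1.09), or 4 to 18 reads per library. NCAC hearts had 0.301, 0.394, 0.374, 0.1 and 0.308 TPM, and Con hearts 0, 0.223, 0.101, 0.203 and 0 TPM, 5 reads in the whole Con group. The CAC range did not overlap the others in TPM, but the lowest CAC and the highest NCAC library each held 4 reads. Wfdc21 was 0.63 higher than in NCAC (SE 0.13, limma adjusted p = 3.39e-05) and 0.86 higher than in Con (SE 0.13, adjusted p = 1.51e-07), a 10.01-fold ratio of means over few reads in Con.

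Wfdc21 averaged 0.968 ± 0.426 TPM in CAC hearts of week 6 and 1.06 ± 0.513 TPM in those of week 8. The week 6 values were 1.19, 0.749, 1.17, 0.332 and 1.39 TPM in CAC hearts, 0.102, 0.102, 0.302, 0.0994 and 0.101 TPM in NCAC hearts, and 0, 0.302, 0.201, 0.200 and 0.195 TPM in Con hearts. Again no CAC library overlapped either arm in TPM, but the lowest CAC and the highest NCAC and Con libraries each held 3 reads. The differences were 0.76 from NCAC (limma adjusted p = 1.38e-05) and 0.71 from Con (adjusted p = 3.29e-05). At week 2 the CAC mean was 0.499 ± 0.242 TPM against 0.307 ± 0.258 TPM in NCAC and 0.158 ± 0.114 TPM in Con hearts, a difference from Con of 0.36 with unadjusted p = 0.0121 and adjusted p = 0.134. At week 4 all 5 CAC libraries, at 0.211 to 0.626 TPM, lay above the NCAC libraries at 0.1 to 0.208 TPM, with limma adjusted p = 0.289. The lowest CAC and the highest NCAC library each held 2 reads. Of all genes, 11.7% had groups that did not overlap in this direction.

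Mmp9 encodes gelatinase B, stored in the last granules that neutrophils form. It had 0.248 to 0.588 TPM in CAC hearts of week 8 (median 0.493, 18 to 48 reads). NCAC hearts had 0.468, 0.520, 0.207, 0.271 and 0.580 TPM, and Con hearts 0.429, 0.603, 0.531, 0.609 and 0.259 TPM. The 3 arms overlapped throughout, and in the fit with no filter Mmp9 differed from Con by -0.03 (95% interval -0.18 to 0.13, limma adjusted p = 0.867) and from NCAC by 0.05 (-0.10 to 0.20, adjusted p = 0.675). No comparison between arms called Mmp9 at any week. Its highest group mean was Con at week 8 (0.486 TPM), within the spread of CAC (0.456 TPM) and NCAC (0.409 TPM) of the same week.

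Ngp encodes a protein of the specific granules that is transcribed in neutrophil precursors of the marrow. CAC hearts of week 8 had 0.0386 to 0.117 TPM, or 1 to 3 reads, NCAC hearts 0.0665 to 0.107 TPM and Con hearts 0 to 0.183 TPM. The difference from Con was 0.01 (95% interval -0.11 to 0.12, limma adjusted p = 1). Its highest group was instead CAC at week 4, with 0.482, 0.427, 0, 0.0756 and 0.112 TPM, or 13, 11, 0, 2 and 3 reads, against 0.0367, 0, 0.0706 and 0.0368 TPM in Con hearts. That difference of 0.22 was called in the fit with no filter (adjusted p = 0.0325), where 5.51% of genes were called higher, and it rests on CAC replicates 1 and 2. Ngp was lower in CAC hearts of week 8 than of week 4 by the same fit, at -0.17 (adjusted p = 0.0276).

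**Figure D2:**
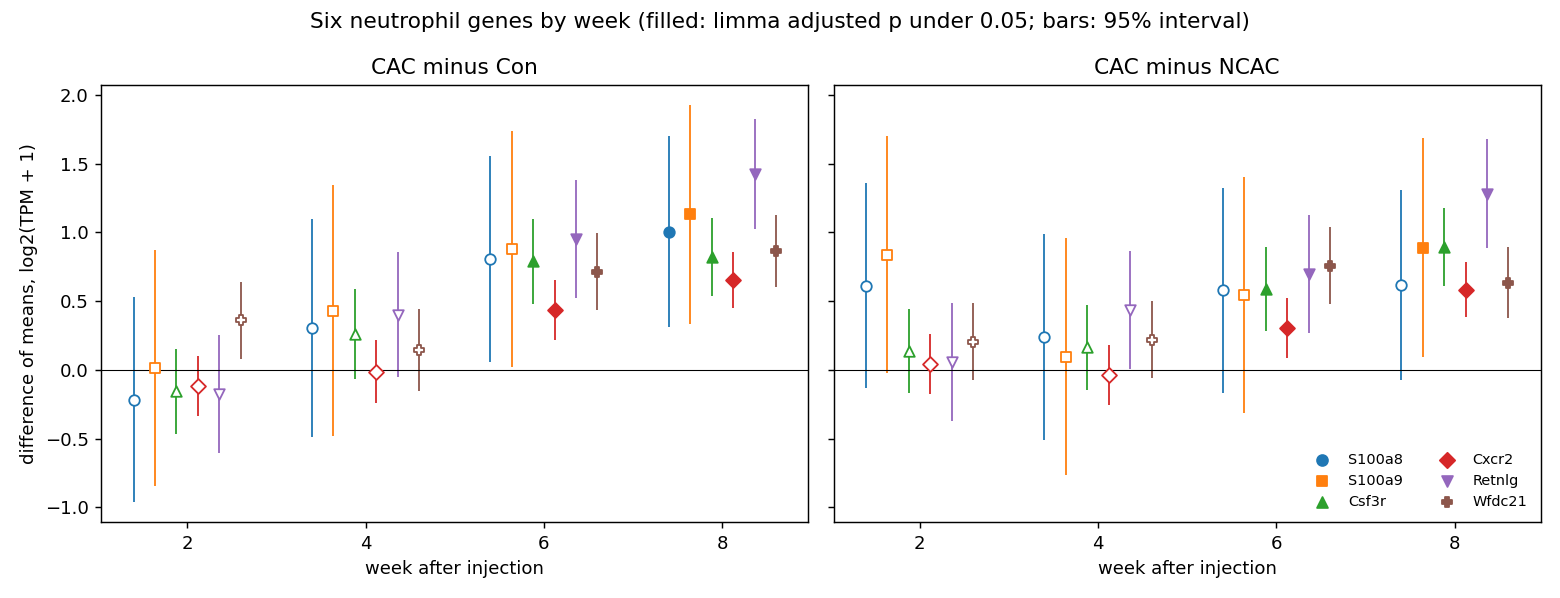
Differences of group means on the log2(TPM + 1) scale for the 6 tested genes by week after injection, CAC minus Con at left and CAC minus NCAC at right; bars are 95% intervals and filled symbols have a limma adjusted p under 0.05. All symbols at weeks 2 and 4 are open; at week 8 all 6 are filled against Con and 5 against NCAC.

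By week, the calls fell into a late block. Against Con, 0 of the 6 tested genes were called at week 2, where 1.83% of genes were called higher, and 0 at week 4, where 12.7% were. At week 6 Csf3r, Cxcr2, Retnlg and Wfdc21 were called, 4 of 6, beside 50.5% of all genes, and all 4 had groups that did not overlap, as had 36% of all genes. At week 8 the same 4 had groups that did not overlap, as had 9.78% of all genes. Cxcr2 and Wfdc21 passed the filter only through CAC hearts, so these counts, and those against NCAC below, are a description. Groups that did not overlap were counted over genes that passed the filter only. Against NCAC, 0 were called at week 2 (0.582% of genes higher) and 0 at week 4 (13.7%). At week 6 Csf3r, Cxcr2, Retnlg and Wfdc21 were called against NCAC (47.7%), with Wfdc21 the single gene whose groups did not overlap (30.3%). At week 8 Csf3r, Retnlg and Wfdc21 did not overlap with NCAC, as 14.8% of all genes did not. Wfdc21 was apart from NCAC at weeks 6 and 8, and from Con at week 6, in TPM only. There the nearest libraries of the groups held equal reads.

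The scale moved these backgrounds. After median-of-ratios rescaling, 19.7% of genes stood higher and 17.9% lower in CAC hearts of week 6 against Con, against 50.5% and 5.25% as deposited. At week 4 the split was 8.44% higher and 6.96% lower, against 12.7% and 2.36%, and at week 2 it was 0.351% and 0.0478%, against 1.83% and 0.00797%. Against NCAC the rescaled split was 21.1% and 19.7% at week 6, against 47.7% and 6.85%, and 9.94% and 8.04% at week 4, against 13.7% and 2.84%. At week 2 it was 0.51% and 0.231%, against 0.582% and 0.00797%.

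The change between weeks was tested too. The CAC minus Con difference was larger at week 8 than at week 2 for 4 of the 6 tested genes, in a test that called 19.1% of all genes in that direction. The increase was 1.60 for Retnlg (limma adjusted p = 5.52e-05), 0.97 for Csf3r (0.000442), 0.77 for Cxcr2 (0.000111) and 0.50 for Wfdc21 (0.0426). The Wfdc21 call was lost in 12 of 22 fits without 1 library and in 8 of 9 other settings (adjusted p up to 0.167). For S100a8 it was 1.22 (adjusted p = 0.0662) and for S100a9 1.12 (0.152), of similar size but with errors of 0.51 and 0.58. Between weeks 4 and 8 the difference grew for Retnlg by 1.02 (adjusted p = 0.0279), Wfdc21 by 0.72 (0.0184) and Cxcr2 by 0.67 (0.0068), where 6.63% of all genes were called. Of these, the Retnlg call was lost in 8 of 21 fits without 1 library and in 5 of 9 other settings (adjusted p up to 0.237), the Wfdc21 call in 1 of 21, without Con week 4 replicate 5 (0.059), and in 3 of 9 (up to 0.125), and the Cxcr2 call in 2 of 9 (up to 0.117). Csf3r, at 0.56, was not called there (adjusted p = 0.102). Between weeks 6 and 8 no gene of the 6 was called, and 0.00797% of all genes were.

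The same test against NCAC called Retnlg (1.22, limma adjusted p = 0.00115), Csf3r (0.76, 0.00429) and Cxcr2 (0.54, 0.00409) between weeks 2 and 8, where 29.8% of all genes were called; voom on recovered reads ended all 3 calls (adjusted p = 0.0532, 0.0619 and 0.153). Between weeks 4 and 8 it called Retnlg (0.85, adjusted p = 0.0384), Csf3r (0.73, 0.0139) and Cxcr2 (0.62, 0.00474), where 15.1% were. The Retnlg call was lost in 11 of 22 fits without 1 library and in 8 of 9 other settings (adjusted p up to 0.288), including no filter (0.0636), the Csf3r call in 2 of 9 (up to 0.0723) and the Cxcr2 call in 1 of 9 (0.0584). For the S100 genes the increase against NCAC between weeks 2 and 8 was 0.00 for S100a8 and 0.05 for S100a9, each with a wide error (SE 0.51 and 0.58). Between weeks 6 and 8 it called no member and 0% of genes in that direction.

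Within the CAC arm all 6 tested genes were higher at week 8 than at week 2, by 0.44 for Wfdc21 to 1.67 for Retnlg, where 42.6% of all genes were called higher. They were also higher at week 8 than at week 4, by 0.54 to 1.13, beside 32.5% of all genes. With no filter the S100a9 call against week 4 was lost (limma adjusted p = 0.0577). From week 6 to week 8 Retnlg was called alone (0.71, limma adjusted p = 0.0437), where 0.614% of genes were, and Cxcr2 at 0.35 missed the threshold (adjusted p = 0.0569). With no filter the Retnlg call was lost as well (limma adjusted p = 0.0568). The other alternatives were not run on changes within an arm. Within Con hearts no member was called between weeks 2 and 8 (0.909% of genes higher). NCAC hearts gave no call for any gene between those weeks (0%), although S100a8 was 1.15 higher at week 8 with an unadjusted p of 0.00312 (adjusted p = 0.799).

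None of the 8 genes was called between NCAC and Con hearts at any week. The limma fit called no gene at all between these arms at weeks 2, 4 and 6 (0%), and 0.486% of genes higher and 0.223% lower at week 8. At week 8 the differences of the 6 tested genes ran from -0.08 for Csf3r to 0.39 for S100a8 (adjusted p = 0.652). S100a8 at week 2, at -0.83, was the single tested member past 0.05 before adjustment (limma unadjusted p = 0.0304, adjusted p = 0.582). It rests on 1.81 ± 0.962 TPM in NCAC against 4.52 ± 2.70 TPM in Con hearts.

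Ordered by mean level over the 12 groups, CAC week 8 came first and CAC week 6 second for S100a9, Csf3r, Cxcr2, Retnlg, Wfdc21 and S100a8. The step between these groups exceeded the larger of their SDs for S100a8, S100a9, Csf3r, Cxcr2 and Retnlg but not for Wfdc21. Below them the groups ran into each other: S100a8 averaged 5.42 TPM in CAC week 6 and 5.30 TPM in NCAC week 8. Exceptions were Csf3r, with a step over the SD between CAC week 6 (1.91 TPM) and Con week 8 (1.18 TPM), and Wfdc21, with one between CAC week 6 and CAC week 2. The summed level of the 8 genes was 37.7 ± 9.73 TPM in CAC hearts of week 8, against 19.1 ± 9 TPM in NCAC and 15.3 ± 5.41 TPM in Con hearts. S100a8 and S100a9 made up 74.6% of that sum in CAC hearts, 82.5% in NCAC hearts and 80.4% in Con hearts, as means over libraries.

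**Figure D3:**
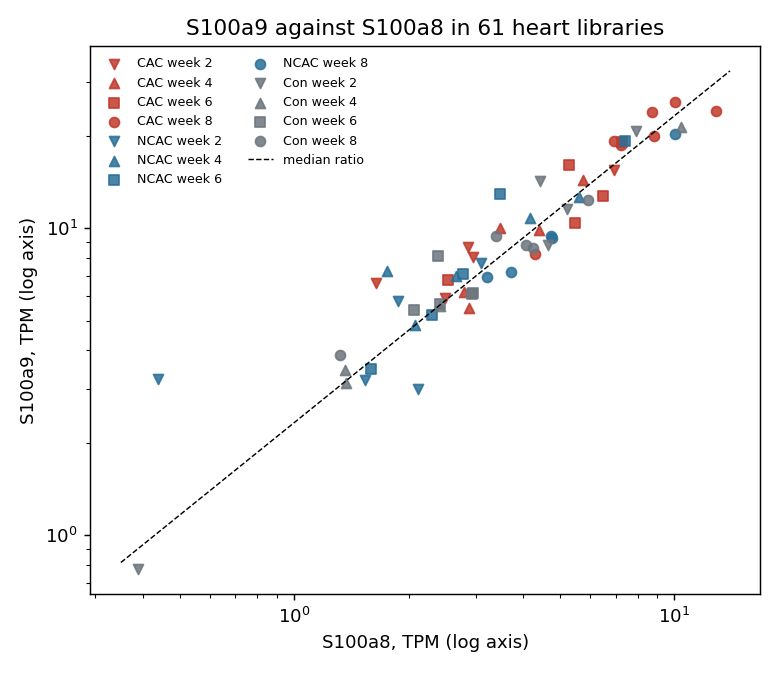
S100a9 against S100a8 in TPM (both axes logarithmic), one point per library, coloured by arm and shaped by week; the dashed line is the median ratio of 2.33. Points follow the line over the whole range, and the library farthest off it is NCAC week 2 replicate 4, with 7 reads of S100a8.

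S100a8 and S100a9 kept a similar proportion in most hearts. The ratio of S100a9 to S100a8 TPM had a median of 2.33 over 61 libraries (1.42 to 7.41), and averaged 2.39 ± 0.376 in CAC, 2.01 ± 0.0884 in NCAC and 2.40 ± 0.423 in Con hearts of week 8. Deviations of the libraries from their own group mean correlated at r = 0.923 between the pair. Csf3r and Cxcr2 correlated at 0.773, S100a9 and Csf3r at 0.747, and S100a8 and Cxcr2 at 0.745. For S100a8, S100a9, Csf3r and Cxcr2 the 3 genes with the most similar deviations, out of all 12541, were members of the same 8, and for Retnlg they were S100a9 (0.678), Cxcr2 (0.664) and S100a8 (0.651). These values describe 61 libraries that share depth and scale within each library.

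Wfdc21 correlated little with the rest. Its deviations correlated at 0.015 (Ngp) to 0.228 (Csf3r) with the other 7 genes, and the genes most like it were Cyp2e1 (0.488), Gm15706 (0.480) and Fam120aos (0.463), none of them members. Mmp9, which no comparison between arms called, correlated at 0.466 to 0.675 with S100a8, S100a9, Csf3r, Cxcr2 and Retnlg. Thus 5 genes and Mmp9 went up and down together between hearts of 1 group, whereas Wfdc21 shared the difference between arms without such a correlation. Wfdc21 held 0 to 18 reads per library (median 3), and counts this low pull a correlation toward 0. Whether Wfdc21 varied with the rest therefore cannot be told here. Across the 8 genes the correlation of deviations with the haemoglobin TPM of the library was -0.215 to 0.243, and with its mitochondrial share -0.272 to 0.01.

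**Figure D4:**
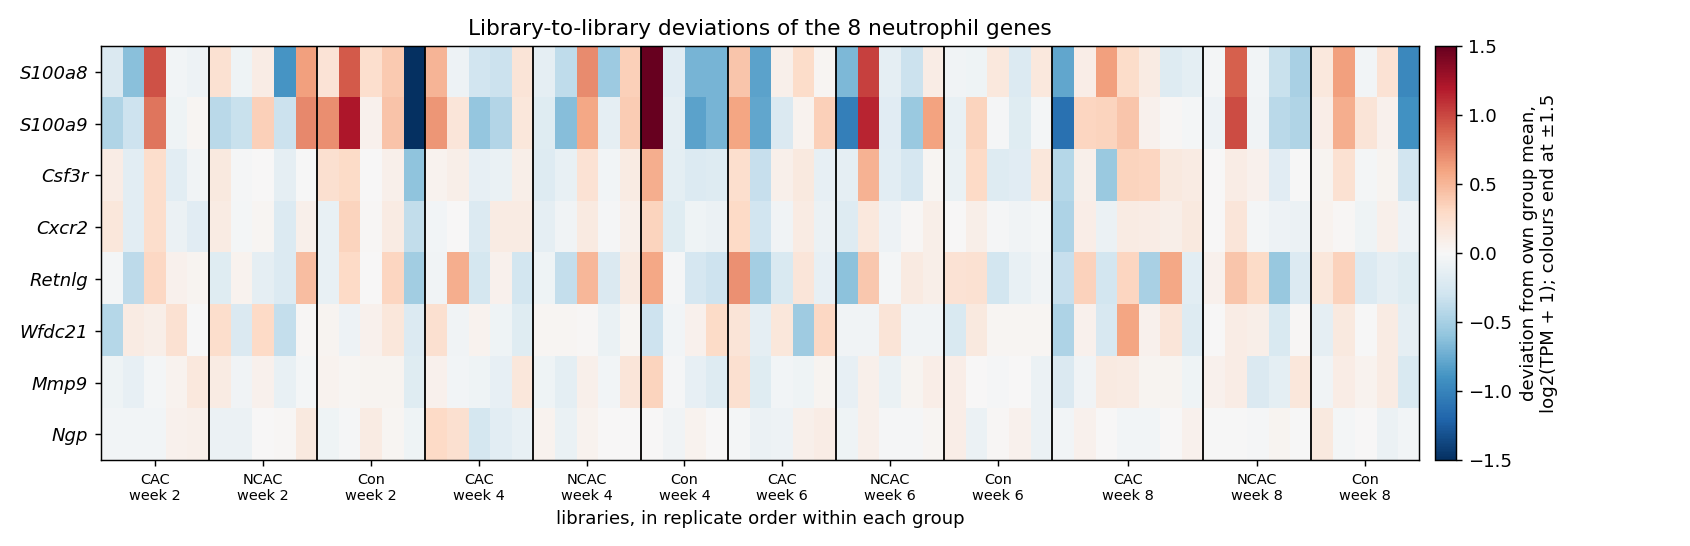
Deviation of every library from its own group mean, log2(TPM + 1), for the 8 genes (top to bottom) and the 61 libraries (left to right by group); red is above the group mean, blue below, and colours end at ±1.5. Columns of 1 colour mark libraries in which the S100 pair, Csf3r, Cxcr2 and Retnlg deviate together, such as Con week 2 replicate 5 and CAC week 8 replicate 1.

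Some hearts stood low or high across the list. Con week 2 replicate 5, Con week 4 replicate 3, CAC week 6 replicate 2, NCAC week 6 replicate 1, CAC week 8 replicate 1 and Con week 8 replicate 5 lay below their group mean in all 8 genes. Con week 2 replicates 3 and 4 and NCAC week 4 replicates 3 and 5 lay above it in all 8. CAC week 8 replicate 3 broke the pattern: it had the highest S100a8 of its group (12.9 TPM) and the lowest Csf3r (1.59 TPM). This library also had 32855 TPM of haemoglobin transcripts, against at most 6607 TPM in the rest of its group, and the highest mitochondrial share of the group (55.7%).

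Other genes of the neutrophil programme were counted at week 8 in lists by role, always CAC against Con. Over all genes 50.8% were called higher and 9.98% lower, 27% and 24.8% after median-of-ratios rescaling, and 30.9% higher with no filter. Genes under 1 TPM in Con hearts may have passed the filter through CAC hearts alone, so counts of genes that passed are a description. Azurophil granule genes, made first, did not all stay near 0. Elane was listed at 0, and Mpo averaged 0.0077 TPM in CAC and 0.0080 TPM in Con hearts. Prtn3 was higher, the 1 of 3 called in the fit with no filter (0.436 ± 0.242 against 0.0361 ± 0.0287 TPM, limma adjusted p = 7.51e-07). Of the specific and gelatinase granule genes outside the 8, both that passed the filter were higher, and 5 of 8 were with no filter. Lcn2, lipocalin 2, had 239 ± 116 TPM against 0.853 ± 0.318 TPM, and Hp, haptoglobin, 31.1 ± 22.9 against 0.604 ± 0.291 TPM. Many cell types transcribe Lcn2 and Hp in inflammation, and their levels were far above those of the 8 neutrophil genes.

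Among surface receptors of neutrophils outside the 8, 10 of 15 were higher and 1 lower in the fit with no filter, in which 30.9% of all genes were called higher. Of the 6 that passed the filter 5 were higher and 1 was lower. Clec4d, a C-type lectin receptor, had 1.85 ± 0.953 TPM in CAC against 0.188 ± 0.0326 TPM in Con hearts (difference 1.20, limma adjusted p = 2.44e-11). Fcgr4, an Fc receptor, had 1.63 ± 0.683 against 0.398 ± 0.132 TPM (adjusted p = 7.11e-08), and Itgb2, the beta chain of the leukocyte integrins, 6.03 ± 1.27 against 2.71 ± 0.139 TPM (adjusted p = 8.56e-08). The 1 lower gene, named after its values were seen, was Cxcr4, the receptor that retains neutrophils in the marrow, at 4.01 ± 1.87 against 8.14 ± 2.10 TPM (-0.90, adjusted p = 0.000481). Ly6g was among those not called with no filter (limma adjusted p = 0.426). Macrophage markers were higher in the same comparison, at a sum of 276 to 686 TPM in CAC against 134 to 189 TPM in Con hearts. Which cells carried the receptor transcripts was not tested. Of the cytosolic and other neutrophil genes outside the 8, 6 of 11 were higher with no filter, and so were both that passed it: Lrg1, a secreted glycoprotein also made by endothelium, at 433 ± 206 against 18.5 ± 3.71 TPM, and Stfa2l1, a stefin, at 2.49 ± 1.42 against 0.376 ± 0.220 TPM. Stefin genes are near-identical copies between which reads may be split, so their single values are uncertain.

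Ligands of Cxcr2 and Csf3r were measured as well. Csf3, which encodes G-CSF, was listed at 0 in CAC and in Con hearts, and Cxcl2 averaged 0.0922 TPM in CAC and 0.105 TPM in Con hearts. Cxcl5 averaged 0.419 ± 0.575 TPM in CAC and 0.314 ± 0.163 TPM in Con hearts and was not called with no filter (limma adjusted p = 0.893). Of 6 chemoattractant and growth factor genes that passed the filter 4 were higher, beside 50.8% of all genes: Ppbp (1.40 ± 0.553 against 0.417 ± 0.0836 TPM, limma adjusted p = 0.000119), Il1b (1.95 ± 0.528 against 1.02 ± 0.338 TPM, 0.0011), Csf1 (23.7 ± 3.37 against 16.8 ± 3.43 TPM, 0.0038) and Cxcl1 (2.5 ± 1.27 against 1.41 ± 0.404 TPM, 0.0196). Ppbp is also a platelet gene. After either rescaling Cxcl1 (0.129 and 0.134) and Csf1 (0.077 and 0.0696) lost the call and 2 of 6 remained.

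Endothelial genes that hold leukocytes went both ways. Of 11 that passed the filter 5 were higher and 3 lower, beside 50.8% and 9.98% of all genes. Selp (P-selectin) had 1.78 ± 0.696 TPM in CAC against 0.175 ± 0.0761 TPM in Con hearts (difference 1.21, limma adjusted p = 1.83e-13), Icam1, a ligand of the Itgb2 integrins, 17.1 ± 2.78 against 8.45 ± 0.565 TPM (0.92), and Sele (E-selectin) 1.96 ± 0.831 against 0.576 ± 0.108 TPM (0.86). Esam, a junction protein, was 0.57 higher. The 3 lower genes, named after their values were seen, were Cdh5 (-0.45, adjusted p = 0.000459), Icam2 (-0.35, 0.0283) and Jam2 (-0.28, 0.0306). After either rescaling the split was 4 higher and 4 lower (27% and 24.8% of all genes by the median of ratios), F11r having lost its call and turned in sign, and Jam3 being called lower.

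Receptors and relatives of S100A8 and S100A9 were measured too. Of 10 genes 7 were higher and 1 lower, beside 50.8% and 9.98% of all genes. After either rescaling the counts were 5 and 3, beside 27% and 24.8% by the median of ratios. Tlr4, the receptor through which the pair signals, had 11.2 ± 2.65 TPM in CAC against 4.97 ± 0.308 TPM in Con hearts (difference 1.00, limma adjusted p = 9.32e-09). S100a13 had 64.4 ± 11.8 against 31.9 ± 3.60 TPM (0.98, adjusted p = 1.1e-11) and S100a4 19.8 ± 7.47 against 11.2 ± 2.44 TPM (0.72, adjusted p = 0.000225). S100a1, at 0.30, lost its call after either rescaling. Bsg, another receptor and the 1 lower gene, named after its values were seen, stood at -0.16 (adjusted p = 0.00157).

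All 5 granulocyte transcription factor genes that passed the filter were higher, beside 50.8% of all genes, also after either rescaling, beside 27% by the median of ratios. They were Cebpd (48.9 ± 15.7 TPM in CAC against 4.08 ± 0.974 TPM in Con hearts, difference 3.22), Cebpb (1.53), Cebpa (1.07), Stat3 (1.07) and Spi1 (0.99), which encodes PU.1. Each is transcribed in other heart cells as well. Cebpe, which drives the specific granule genes in precursors, was listed at 0 in CAC and averaged 0.0071 TPM in Con hearts. Among the matrix metalloproteases and inhibitors beside Mmp9, all 6 that passed were higher, also after either rescaling, against the same shares. Mmp3, stromelysin, had 39.7 ± 15.6 against 0.962 ± 0.514 TPM (4.2) and Timp1, an inhibitor of Mmp9, 13.8 ± 6.39 against 2.21 ± 0.495 TPM (2.06). Timp4 was 1.56 and Mmp2, gelatinase A, 0.76 higher.

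The closest relatives of Retnlg and Wfdc21 did not all follow them. Retnla, the resistin-like gene of alternatively activated macrophages, was lower in CAC at 3.08 ± 4.08 TPM, against 18.9 ± 7.36 TPM in Con hearts (-2.62, limma adjusted p = 1.94e-07), and Retnlb was listed at 0. Wfdc17, another WAP-domain gene, had 118 ± 58 against 10.4 ± 1.08 TPM (3.19, adjusted p = 7.46e-15), whereas Wfdc1, at 14.3 ± 2.31 against 13.8 ± 1.12 TPM, was not called (adjusted p = 0.81). Against NCAC at week 8 the counts were 2 of 2 higher for granule genes, 7 higher and 1 lower of 8 for surface receptors with Csf3r and Cxcr2 included, and 5 of 6 for chemoattractants, or 3 of 6 after either rescaling, where Cxcl1 and Cxcl12 lost their calls; 57.4% of all genes were called higher in that comparison and 27.5% after median-of-ratios rescaling. Between NCAC and Con hearts none of these lists held a called gene at week 6 or week 8.

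**Figure D5:**
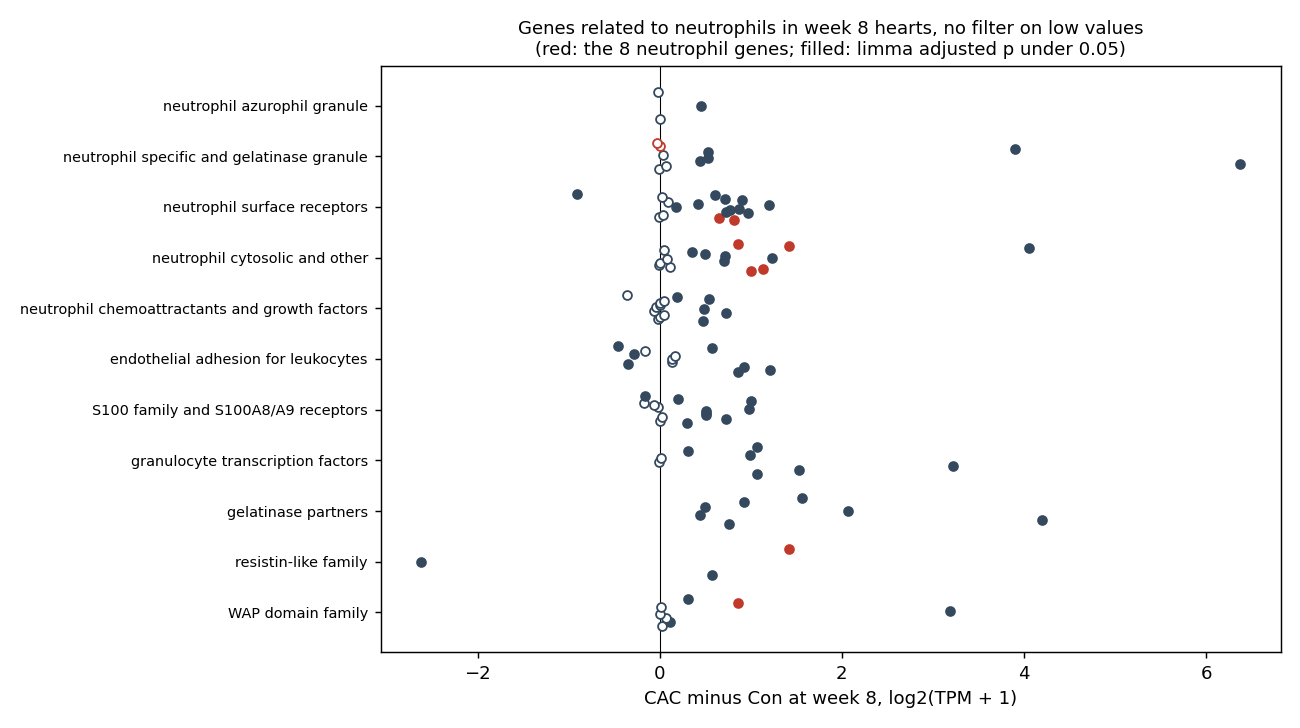
CAC minus Con difference at week 8, log2(TPM + 1), fit with no filter, for genes in lists by role (top to bottom); red points are the 8 neutrophil genes, other genes are dark, and filled points have a limma adjusted p under 0.05. The 6 called members lie between 0.65 and 1.42, Mmp9 and Ngp lie at 0, and Lcn2, Hp, Lrg1, Mmp3, Cebpd and Wfdc17 lie beyond 3.

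Markers of other cells differed between the same groups, and their part in the results was not tested. Counts below are for CAC against Con at week 8, where 50.8% of all genes were called higher and 9.98% lower. After median-of-ratios rescaling these shares were 27% and 24.8%. Beside the shares as deposited, the counts alone do not set the monocyte and fibroblast markers apart. At week 8, 9 of 10 macrophage markers were higher in CAC than in Con hearts, with a summed level of 276 to 686 TPM in CAC, 80.2 to 176 TPM in NCAC and 134 to 189 TPM in Con hearts. Of 4 monocyte markers that passed 2 were higher, at a sum of 12 to 26.5 TPM in CAC, 9.35 to 10.8 TPM in NCAC and 9.85 to 12.2 TPM in Con hearts, and monocytes transcribe S100a8 and S100a9 too. Both platelet markers that passed were higher, at a sum of 22.5 to 30.8 TPM in CAC against 13.3 to 17.7 TPM in Con hearts. Of 5 fibroblast markers 2 were higher, Dcn and Pdgfra, at a sum of 635 to 1294 TPM in CAC, 408 to 589 TPM in NCAC and 467 to 558 TPM in Con hearts. Of the 5 endothelial markers 2 were lower, at a sum of 196 to 256 TPM in CAC, 175 to 244 TPM in NCAC and 234 to 290 TPM in Con hearts. Of 5 melanocyte markers 2 passed the filter: Mlana was higher, at 4.81 ± 2.81 TPM in CAC against 0.174 ± 0.0795 TPM in Con hearts, and Dct lower, at 1.02 ± 0.634 against 3.04 ± 0.713 TPM. The melanocyte markers summed to 2.64 to 9.65 TPM in CAC, 1.22 to 5.29 TPM in NCAC and 2.60 to 4.36 TPM in Con hearts. B cell markers summed to 0.988 to 1.46 TPM in CAC against 1.74 to 4.78 TPM in Con hearts, with 2 of 2 lower. Markers of T and NK cells (1 lower of 1) and mast cells (1 lower of 1) were also low, and 1 of 4 eosinophil markers was at 0 in every week 8 group. Haemoglobin transcripts, a measure of blood in the sample, spanned 165 to 32855 TPM in CAC and 1776 to 4545 TPM in Con hearts, and 0 of 5 erythroid markers were called. Of 6 cardiomyocyte markers 1 was higher and 4 lower, at a sum of 15183 to 24653 TPM in CAC against 24409 to 30680 TPM in Con hearts. After either rescaling 1 was higher and 5 lower.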

How the data were processed

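RNA from 62 hearts was sequenced as stranded mRNA libraries (TruSeq kit, NovaSeq 6000) per the labels' protocols, and reads were mapped to mm10 per the submitters' processing notes (aligner and annotation: not given in the sources used here). TPM were deposited by the authors for 47643 symbols, and 24270 of these held 0 throughout. Samples were grouped by their labels. The 3-week time point after LLC cell injection in the labels' protocol text fits none of the samples. The 8 genes and all lists were chosen with earlier results of these data known.

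Whole reads were recovered from TPM steps for the 8 genes in 62 of 62 libraries (tolerance 0.05 reads), and Wfdc21 and Ngp rest on under 20 reads per library. limma 3.58.1 (R 4.3.3) was fitted to log2(TPM + 1) of 12541 genes that were at 1 TPM or above in 5 or more libraries, with 12 group means, a trended variance and Benjamini-Hochberg adjustment per comparison. From each list up to 4 called genes with the smallest p were named, or every one where 5 or fewer were called. The code was tested on simulated data. Same-numbered libraries did not deviate together (58 pairs, median correlation 0.005, none of 12 comparisons with every pair over 0.1), so libraries were not paired. Alternatives were another pseudocount, filters, rescalings, 2-group fits, a replicate block, array weights, voom on recovered reads and leaving out libraries; the voom fit and the fits without CAC week 8 replicate 3 under rescaling were added after seeing the data, as were the alternatives of the differences between weeks. Python 3.11.15 with pandas 2.3.3, numpy 2.4.6 and matplotlib 3.10.9 was used.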

Additional observations from a re-analysis of the deposited data

Results flagged for a closer look

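Of 96 sets (8 genes in 12 groups), 13 held a library whose gap to the nearest other was large against the range of its group. The rule is set to flag about 1 set in 20 by chance where values are independent and normal. These sets are not independent, as S100a8 and S100a9 deviated together (r = 0.923), and some rest on few reads. The 13 are therefore a description, and whether they exceed chance was not tested. Con week 4 replicate 1 stood high for S100a8 at 10.402 TPM (others 1.36 to 2.42), S100a9 at 21.303 TPM (3.14 to 5.56) and Csf3r at 1.603 TPM (0.538 to 0.604). CAC week 2 replicate 3 stood high for S100a8 at 6.913 TPM (others 1.64 to 2.96) and S100a9 at 15.529 TPM (5.93 to 8.70). NCAC week 8 replicate 2 stood high for S100a8 at 10.048 TPM (others 3.21 to 4.78) and S100a9 at 20.325 TPM (6.92 to 9.41). S100a9 was low in CAC week 8 replicate 1 at 8.234 TPM (others 18.6 to 25.7) and high in Con week 6 replicate 2 at 8.109 TPM (5.40 to 6.17). Wfdc21 was low in NCAC week 4 replicate 4 at 0.1 TPM and high in NCAC week 6 replicate 3 at 0.302 TPM, steps of 1 to 3 reads. Mmp9 was low in Con week 2 replicate 5 at 0.152 TPM (others 0.333 to 0.349), and Ngp high in NCAC week 8 replicate 4 at 0.107 TPM (0.0665 to 0.0730).

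Differences between arms that changed between weeks, by limma, are the other results to look at again. For CAC minus Con, week 8 exceeded week 2 by 0.97 for Csf3r, 0.77 for Cxcr2, 1.60 for Retnlg and 0.50 for Wfdc21, and exceeded week 4 by 0.67 for Cxcr2, 1.02 for Retnlg and 0.72 for Wfdc21. For CAC minus NCAC, week 8 exceeded week 2 by 0.76 for Csf3r, 0.54 for Cxcr2 and 1.22 for Retnlg, and exceeded week 4 by 0.73 for Csf3r, 0.62 for Cxcr2 and 0.85 for Retnlg. The week 8 against week 4 call of Retnlg was lost in 8 of 9 other settings against NCAC and in 5 of 9 against Con, and the week 8 against week 2 call of Wfdc21 against Con in 8 of 9.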

How the results depend on the processing

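No called difference of the 8 genes reversed under any alternative. Among the related genes, Bsg against Con at week 6 was 0.11 as deposited (adjusted p = 0.0376) and -0.15 after rescaling without mitochondrial and haemoglobin genes (0.0162), and F11r at week 8 lost its call and turned to -0.04 and -0.02 after the rescalings. In the fits that tested them, the calls of Csf3r, Cxcr2, Retnlg and Wfdc21 against Con at weeks 6 and 8, and of Csf3r, Cxcr2, Retnlg and Wfdc21 against NCAC at week 8, were made under every alternative. A filter of 5 TPM leaves only S100a8 and S100a9 to test, with 0 called against Con at week 6 and 2 at week 8, 0 against NCAC at week 6 and 1 at week 8, and 0 in the differences between weeks for week 8 against week 2 and against week 4 in both comparisons. Against Con at week 4, where none was called, no filter gave 1 call (Ngp), and all 62 libraries gave 2, Csf3r (adjusted p = 0.0439) and Retnlg (0.0343). The 2-group fit gave 2 calls against NCAC at week 6 (Csf3r and Retnlg), Cxcr2 and Wfdc21 being under its filter. The replicate block gave 4 and 6 calls against Con at weeks 6 and 8 and 4 and 4 against NCAC, S100a9 being lost against NCAC at week 8 (adjusted p = 0.0739), with 3 and 2 calls in the differences between weeks (week 8 against week 2 and against week 4) for both comparisons; it shares numbers that do not pair hearts. For week 8 against week 4, CAC minus Con gave 0 calls with a pseudocount of 0.1, 1 with all 62 libraries and 0 with voom; CAC minus NCAC gave 1 with a pseudocount of 0.1 and 0 with voom, which also gave 0 for week 8 against week 2. Leaving out 1 library at a time gave 4 to 6 calls against Con at week 6 and 4 to 6 at week 8, and 3 to 4 against NCAC at week 6 and 3 to 6 at week 8, 3 being reached without CAC week 8 replicate 2, 4, 5, 6 or 7, where Cxcr2 falls under the filter. For CAC minus Con it gave 2 to 6 calls for week 8 against week 2 (2 without CAC week 8 replicate 2, 4, 5 or 6), 1 to 4 against week 4 (1 without replicate 2 or 6) and 0 against week 6. For CAC minus NCAC it gave 2 to 4, 1 to 3 (1 without replicate 2, 4 or 6) and 0. Low reads limit Wfdc21, Ngp, Retnlg and Cxcr2, and changes of a few reads in Ngp were not detectable at this depth.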
